A study of Mus musculus with 9 samples.

Results

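The comparison describes the full range of Myc in one culture system, mouse embryonic stem (ES) cells sorted into the highest and the lowest Myc populations. All 13499 genes of the authors' table were members, and 6 of the 9 libraries of the series entered the contrast, 3 High and 3 Low. ES cells are cultured cells of the early embryo that can form all of its tissues. All groups were C57BL/6 ES cells kept on gelatine with LIF, the cytokine that holds them undifferentiated, and sorted on a cytometer by fluorescence, either of Myc fused to GFP or of EYFP. Which of these reporters each sample carried, and whether the cells were 1 clone, is not stated in the labels. The High and Low groups hold biological replicates numbered 1 to 3, and 3 libraries of a Medium population were used for the estimate of spread and are given as side values only.

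Myc is a transcription factor of the basic helix-loop-helix class that binds the E-box hexamer CACGTG together with its partner Max. It is known for raising the expression of genes for ribosome production, RNA synthesis and cell growth, and in ES cells it is linked to self-renewal. The lysosomal factors Tfeb and Mitf belong to the same structural class and read the same hexamer, and Myc has been described as a counterpart to them at lysosomal genes.

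The deposited values are read counts that the authors normalized, on a scale close to CPM (counts scaled to a common library total); libraries held 11429949 to 15319564 reads in the High and Low groups. A gene is called here when limma's adjusted p was under 0.05, with Benjamini-Hochberg adjustment over all genes, and log2 fold changes are High minus Low on log2(signal + 1 CPM). Normalized counts of replicates are given in the order 1 to 3, and a value in parentheses after a gene is its log2 fold change unless marked as a fold. Each library was scaled to a similar total, so a higher or lower value is relative to the rest of that library's RNA. In bulk RNA, fewer cells of a type and less RNA per cell cannot be told apart. Myc RNA itself was 26.3, 27.6 and 24.2 in Low and 112, 101 and 106 in High; as the groups are named by Myc, this checks the labels. All 18 defining ES cell markers were measured, and their summed level was 6598 to 8333 in Low and 8193 to 8997 in High.

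Libraries of the same group differed in how long and short transcripts were represented. The median log2 deviation of genes with transcripts of at least 4728 nt minus that of genes up to 2100 nt was 0.28, -0.59 and -0.27 in the Low libraries and 0.25, -0.06 and -0.07 in the High libraries. Among the genes with long transcripts 17.7% were higher and 10.4% lower, and among those with short transcripts 8.76% were higher and 14.5% lower.

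Over all genes, 3832 (28.4%) were called, 1866 (13.8%) higher and 1966 (14.6%) lower in High. Most differences were small: the median absolute log2 fold change of the called genes was 0.62, and 3157 of them (82.4%) differed by less than 2-fold. Differences of 2-fold or more were called for 312 genes (2.31%) above and 363 (2.69%) below. Apart from genes such as Ntn1 and Rhox9 at the extremes, the 30 highest by the naming rule included Nkx6-3 (2.03), Zmat4 (1.92), Mras (1.87), Ppm1j (1.85), Adam23 (1.83), Zc3h12a (1.82), Inhbb (1.81), Bmp2k (1.67), Enox1 (1.62) and Ahnak (1.62). Mras is a Ras-family GTPase, Inhbb a subunit of activin B and Zc3h12a an RNase that degrades inflammatory mRNAs. The 30 lowest included Mbp (-2.18), Prickle1 (-2.0), Id2 (-1.93), Atg16l2 (-1.93), Ap3b2 (-1.89), Slc5a5 (-1.88), Nrk (-1.85), Cldn7 (-1.79), Gprc5c (-1.76) and Espn (-1.75). Id2 is an inhibitor of basic helix-loop-helix factors, Prickle1 a planar polarity protein, and Slc5a5 the iodide transporter. These 20 genes passed in each of the 9 fits that left out 1 library, and passing was part of how they were picked.

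**Figure D1:**
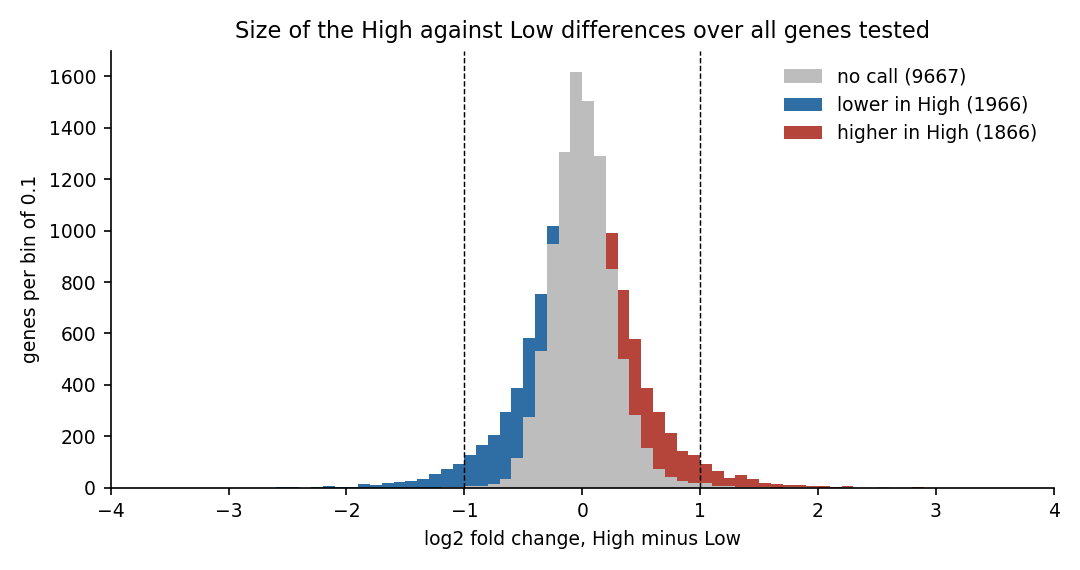
Histogram of the log2 fold change (High minus Low) of the 13499 genes in bins of 0.1, stacked by call; the dashed lines mark 2-fold. The 3832 called genes form both shoulders of the distribution, and 3157 of them lie between the dashed lines.

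The calls depended on single libraries. Genes called with all libraries and also in each of the 9 fits without 1 library numbered 967 higher (7.16%) and 1109 lower (8.22%). Without Low replicate 1, 22.7% of genes were higher and 20.6% lower, and without Low replicate 3 these were 8.3% and 9.07%. Low replicates 1 and 2 were the pair of replicates that differed most. The transcript length correction called 19.4% of genes higher and 18.7% lower. A list's share of called members is to be compared with these background shares, and genes named as higher or lower passed in all 9 fits unless their loss is given. Counts that moved by over 1.5 times and by 2 genes or more are also given without the libraries at either end of their range, for the fit with the replicate number as a block (block fit), the fit corrected for transcript length (length fit) and the fit with every library set to the same total (equal totals).

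**Figure D2:**
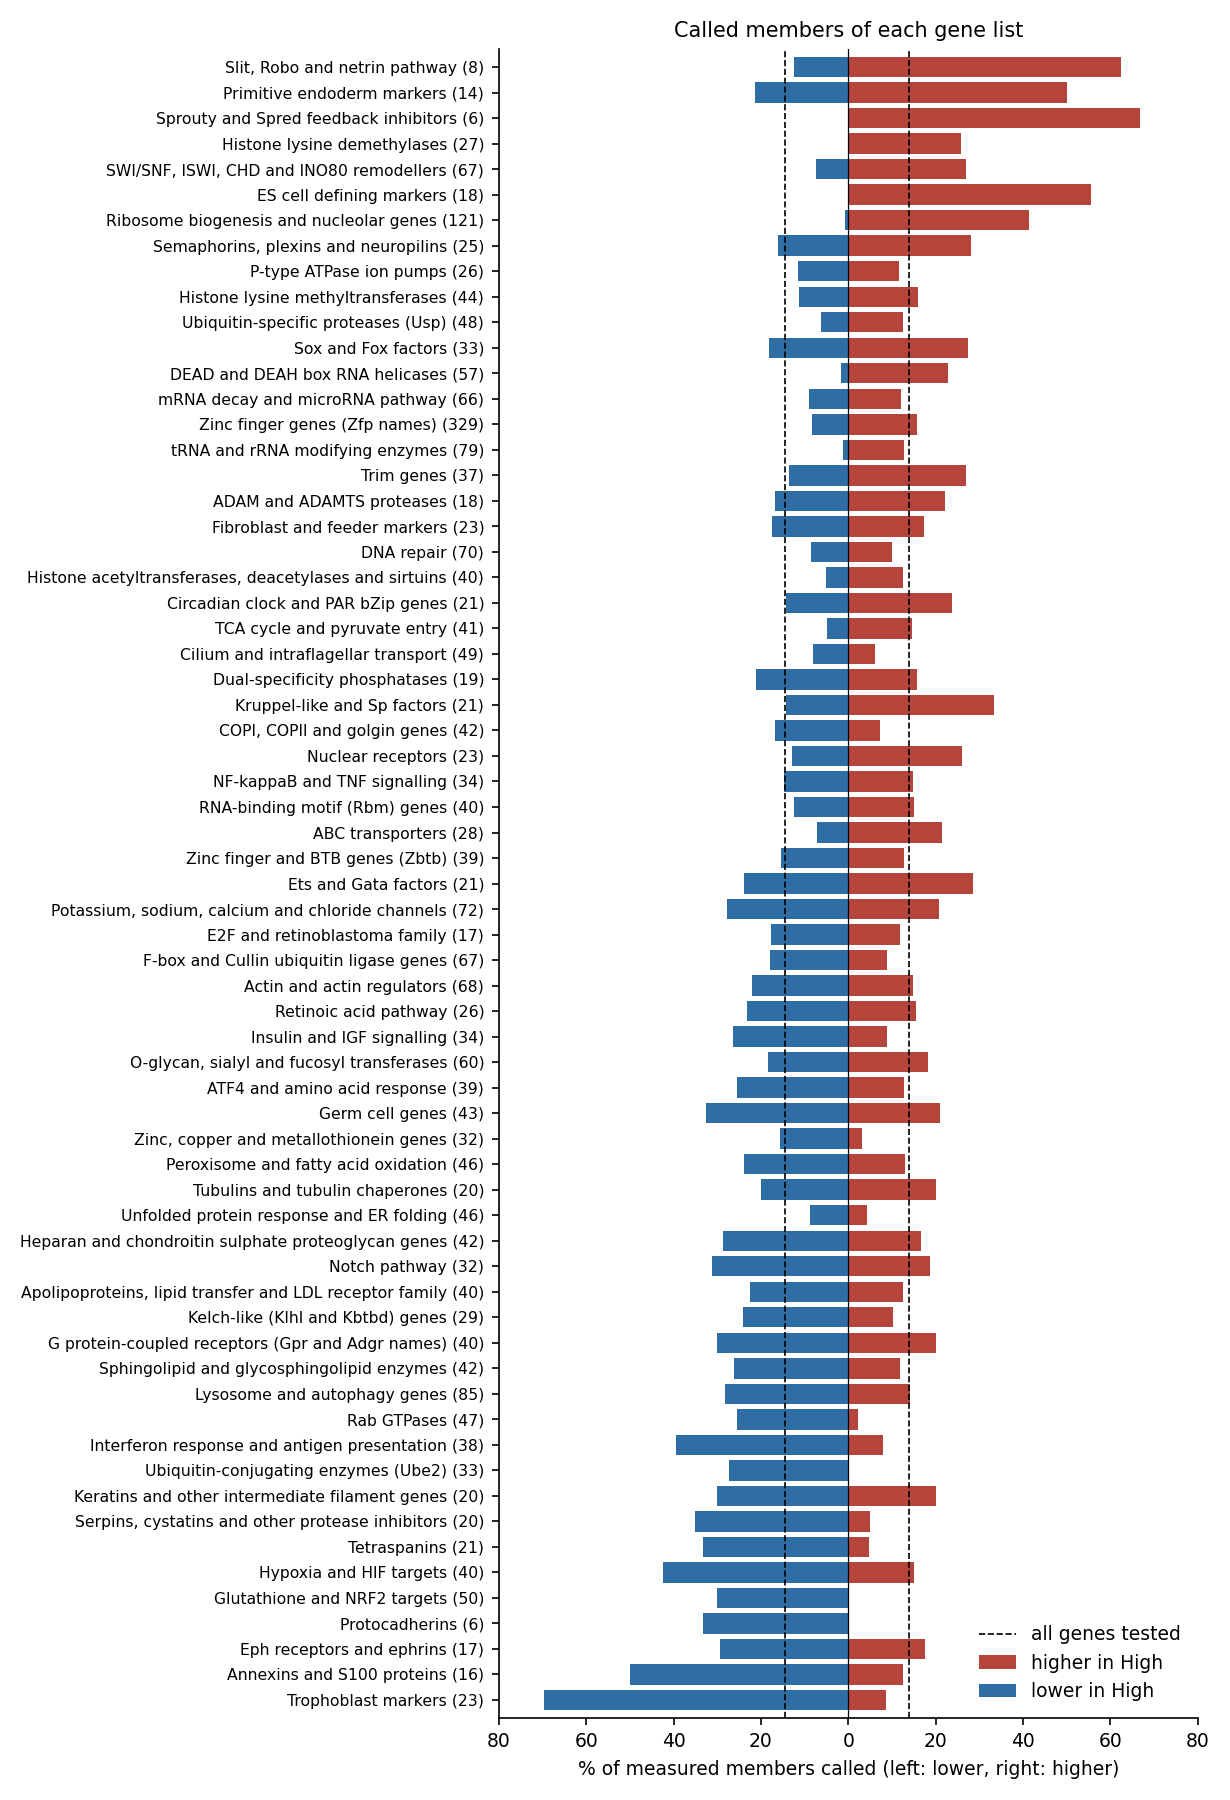
Share of the measured members of each list that were called higher (bars to the right, in %) or lower (bars to the left, in %) in High than in Low, for 65 lists with at least 6 measured members, sorted by median log2 fold change; members measured are in parentheses and dashed lines mark all genes tested. Ribosome biogenesis genes stand at 41.3% higher and 0.826% lower, and trophoblast markers at 69.6% lower. The lists were chosen with earlier results of these data known.

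Genes for making ribosomes were called higher in High far more often than lower, and by small steps. Of 121 ribosome biogenesis and nucleolar genes, 50 were higher and 1 was lower, Taf1b, with a median log2 fold change of 0.24 against 0 over all genes. The other 70 were not called, and 15 of the 50 higher genes passed in all 9 fits. The largest log2 fold change in the list was 1.22. Rrp1b, a nucleolar protein that binds the processing machinery, was at 195, 138 and 157 in Low and 267, 248 and 240 in High, with log2 fold change 0.64 ± 0.12 (SE) and limma adjusted p = 0.00397. No Low library reached a High library. Polr1b, the second-largest subunit of RNA polymerase I, was at 139, 102 and 118 in Low and 192, 168 and 173 in High (1.48-fold, limma adjusted p = 0.00539). Nop2, which methylates the large rRNA, was at 228, 201 and 217 in Low and 279, 288 and 280 in High (1.31-fold, limma adjusted p = 0.00367). Nolc1, Senp3 and Bop1, all nucleolar assembly factors, had log2 fold changes of 0.35, 0.42 and 0.33. The abundant nucleolar proteins fibrillarin (Fbl) and nucleophosmin (Npm1) were not called, at 346 ± 74.9 in Low and 339 ± 30.6 in High and 3475 ± 414 in Low and 3139 ± 104 in High (SD, n = 3). As few as 19 were higher without Low replicate 3 or High replicate 2. The fit that left out Low replicate 1 called as many as 5 lower. After the length correction 71 were higher and 1 lower, with a median of 0.26.

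Other groups of RNA enzymes held smaller shares of called genes. Of 57 DEAD and DEAH box helicases, motors that unwind RNA, 13 were higher and 1 lower (median 0.17). Members that were higher numbered as few as 6 without Low replicate 3 or High replicate 1 and as many as 23 without Low replicate 1, and 25 in the block fit, 27 in the length fit and 8 with equal totals. Dhx30, a mitochondrial ribosome helicase, and Ddx54 and Ddx10, helicases of ribosome assembly, had log2 fold changes of 0.46, 0.38 and 0.46. Ddx54 and Ddx10 also belong to the ribosome biogenesis list. The largest change was that of Ddx58, which encodes the viral RNA sensor RIG-I and is described with the interferon genes. Of 79 tRNA and rRNA modifying enzymes 10 were higher, a share of 12.7% that is near that of all genes, and 1 was lower; Trmt44 (0.72), Dus3l (0.49) and Adat3 (0.49) passed in all 9 fits. Without Low replicate 3 the higher count was lowest at 3, and 17 in the block fit and 24 in the length fit. When Low replicate 1 was left out, as many as 7 were lower, and 3 in the block fit, 5 in the length fit and 3 with equal totals. Of 66 genes of mRNA decay and microRNA function 8 were higher (12.1%, near the 13.8% of all genes) and 6 lower (9.09%). With every library set to the same total these counts were 5 and 7. The antiproliferative deadenylation factors Btg2 and Btg1 were lower (-1.25 and -0.71), as was Dgcr8 (-0.51), which cuts primary microRNAs with Drosha. Smg5, of nonsense-mediated decay, was higher, at 199, 139 and 173 in Low and 229, 268 and 253 in High (1.47-fold). The count of higher members was 4 without Low replicate 3, High replicate 1 or High replicate 2 and 28 without Low replicate 1, and 20 in the block fit and 15 in the length fit. Removing Low replicate 1 gave as many as 10 lower members.

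Lysosome and autophagy genes that were called went mostly the other way. Of 85, 24 were lower, 12 higher and 49 not called (median -0.15). Psap, the precursor of the saposins that help degrade sphingolipids, was at 360, 334 and 351 in Low and 217, 223 and 219 in High (1.59-fold lower in High, limma adjusted p = 0.000123). The protease cathepsin D (Ctsd), the membrane proteins Lamp2 and Laptm4b and progranulin (Grn) had log2 fold changes of -0.41, -0.39, -0.66 and -0.6. Atg16l2, a paralog of the autophagy factor Atg16l1, had -1.93. The higher members held regulators as well as enzymes. Tfeb was at 25.8, 27 and 26.1 in Low and 38.8, 40.3 and 46.8 in High (1.6-fold) and Mitf at 6.33, 3.76 and 4.61 in Low and 10.6, 9.33 and 9.74 in High (2.02-fold), both without overlap. Manba, a lysosomal mannosidase, and the autophagy genes Atg14 and Tecpr1 were also higher (1.25, 0.56 and 0.81). As few as 13 were lower without Low replicate 3, and as many as 37 without Low replicate 1.

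To set the hexamer beside these calls, promoters from RefSeq (GRCm38.p6, 250 bases before to 50 after each start) were searched for CACGTG. It reads the same on both strands. Of the 9765 tested genes with a promoter matched by symbol (72.3% of genes), 11.9% held it, as did 8.09% of all 27025 genes of the promoter table. It was in 23 of 100 ribosome biogenesis promoters (23%) and in 18 of 70 lysosome and autophagy promoters (25.7%). Among called members it was in 11 of 42 higher ribosome biogenesis genes (26.2%) and 5 of 19 lower lysosome genes (26.3%), near the shares of their whole lists. Whether the hexamer went with the calls was not tested. The longer form TCACGTGA, which contains the hexamer, was in 1 of the 100 ribosome biogenesis promoters and 7 of the 70 lysosome promoters, beside 2.15% of tested genes. Within the 100 bases before the start the hexamer was in 7% of the ribosome biogenesis promoters and 17.1% of the lysosome promoters, beside 5.63%. Of the other lists searched, it was in 2.27% of the 44 matched promoters of the glutathione list, 6.06% of the 33 of the interferon list, 14.3% of the demethylases, 14.6% of the Rab GTPases, 15.6% of the tRNA and rRNA enzymes, 16.3% of the helicases and 21.9% of the 32 of the hypoxia list. TCACGTGA was in 7.32% of the Rab promoters, beside 2.15% of all tested genes with a promoter, and in 2 of the 10 matched promoters of lower Rab genes. Among higher lysosome genes CACGTG was in 2 of 11 (18.2%). A match describes these letters and is no evidence of binding.

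Promoters are shown for the 3 called members with the largest change in each list that hold the hexamer. Its place and surroundings can so be compared between the lists. The called members were mostly higher in the ribosome biogenesis list and mostly lower in the lysosome list. Capitals mark CACGTG, each run is 5′ to 3′ on the gene's strand, and the last 50 bases begin at the annotated start. The windows are chr4:32656869-32657168 (plus strand) for Mdn1, chr11:70409982-70410281 (minus strand) for Pelp1, chr11:71004383-71004682 (minus strand) for Dhx33, chr2:164833523-164833822 (plus strand) for Ctsa, chr11:119355461-119355760 (minus strand) for Sgsh and chr8:3500269-3500568 (plus strand) for Mcoln1, on GRCm38.p6. Counted from 0 at the start, the hexamer begins at position 38 in Mdn1, -229 in Pelp1, -35 in Dhx33 and -29 in Sgsh, and Ctsa and Mcoln1 hold 2 copies each, of which the first begin at -12 and -71.
Mdn1: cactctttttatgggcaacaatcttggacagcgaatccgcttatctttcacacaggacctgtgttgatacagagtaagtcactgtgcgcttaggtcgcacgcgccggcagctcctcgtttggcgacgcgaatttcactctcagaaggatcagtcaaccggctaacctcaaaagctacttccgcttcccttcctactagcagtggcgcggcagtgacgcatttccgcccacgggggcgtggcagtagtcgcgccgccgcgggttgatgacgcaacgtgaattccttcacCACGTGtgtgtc
Pelp1: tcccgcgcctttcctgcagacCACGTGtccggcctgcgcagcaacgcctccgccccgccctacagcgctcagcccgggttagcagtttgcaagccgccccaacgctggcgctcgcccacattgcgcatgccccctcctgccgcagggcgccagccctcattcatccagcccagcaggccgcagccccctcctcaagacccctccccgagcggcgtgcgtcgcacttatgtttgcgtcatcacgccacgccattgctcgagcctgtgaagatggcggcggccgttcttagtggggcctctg
Dhx33: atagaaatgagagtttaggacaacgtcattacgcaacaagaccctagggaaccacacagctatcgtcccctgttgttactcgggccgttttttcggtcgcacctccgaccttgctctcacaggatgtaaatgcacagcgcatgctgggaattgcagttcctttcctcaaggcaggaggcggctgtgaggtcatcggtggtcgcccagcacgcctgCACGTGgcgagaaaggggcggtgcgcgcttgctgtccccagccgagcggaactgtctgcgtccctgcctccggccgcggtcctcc
Ctsa: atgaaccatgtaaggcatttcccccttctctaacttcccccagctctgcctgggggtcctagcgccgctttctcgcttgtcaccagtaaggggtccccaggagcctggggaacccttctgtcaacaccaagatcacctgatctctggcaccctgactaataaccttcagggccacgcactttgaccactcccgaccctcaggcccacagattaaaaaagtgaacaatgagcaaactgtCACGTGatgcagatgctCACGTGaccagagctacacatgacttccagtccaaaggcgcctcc
Sgsh: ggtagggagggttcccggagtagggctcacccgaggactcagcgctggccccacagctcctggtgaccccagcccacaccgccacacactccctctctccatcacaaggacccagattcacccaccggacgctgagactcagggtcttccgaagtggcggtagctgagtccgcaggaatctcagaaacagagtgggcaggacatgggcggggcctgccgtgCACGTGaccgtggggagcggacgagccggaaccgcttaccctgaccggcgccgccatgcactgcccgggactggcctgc
Mcoln1: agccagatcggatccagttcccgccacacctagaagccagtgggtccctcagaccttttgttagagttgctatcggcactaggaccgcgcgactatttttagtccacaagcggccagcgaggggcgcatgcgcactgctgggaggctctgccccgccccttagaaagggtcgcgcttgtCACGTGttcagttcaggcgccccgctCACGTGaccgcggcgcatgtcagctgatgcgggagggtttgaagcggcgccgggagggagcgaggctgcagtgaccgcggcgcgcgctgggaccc

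Mdn1 encodes the large AAA ATPase that releases assembly factors from the pre-60S ribosome. It was at 415, 145 and 177 in Low and 636, 456 and 469 in High, so that Low replicate 1 lay near the High libraries; its log2 fold change was 1.22 ± 0.34 (SE), and 0.7 after the length correction. Pelp1, a scaffold of the same step, was at 189, 133 and 152 in Low and 224, 215 and 211 in High, and Dhx33, a nucleolar helicase, at 67.2, 46.6 and 50.8 in Low and 78, 70.6 and 69.9 in High. Ctsa, the protective cathepsin A, was at 158, 184 and 177 in Low and 109, 126 and 124 in High, and Mcoln1, the lysosomal calcium channel, at 41.5, 42.6 and 44.4 in Low and 30.2, 32.4 and 31.5 in High. Sgsh, a heparan sulphate sulphatase, was low throughout, at 3.38, 1.88 and 2.62 in Low and 1.52, 1.51 and 1.61 in High. The calls for Ctsa and Mcoln1 passed in all 9 fits. The call for Mdn1 was lost without High replicate 1, High replicate 2, High replicate 3, Low replicate 2 or Low replicate 3 (adjusted p from 0.0532 to 0.0943). Pelp1 lost its call without High replicate 1, High replicate 2 or Low replicate 3 (adjusted p from 0.055 to 0.0667). Dhx33 lost its call without High replicate 1, High replicate 2, High replicate 3, Low replicate 2, Low replicate 3, Medium replicate 1 or Medium replicate 3 (adjusted p from 0.0541 to 0.127), and Sgsh lost its call without High replicate 1, High replicate 2, High replicate 3, Low replicate 1, Low replicate 3, Medium replicate 1, Medium replicate 2 or Medium replicate 3 (adjusted p from 0.0597 to 0.116).

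Among chromatin regulators, the histone demethylases that were called were all higher. Of 27 histone lysine demethylases and related Jumonji proteins, 7 were higher (25.9%) with a median of 0.32; 0 were lower by limma, 1 at an unadjusted p under 0.05, 0 by edgeR and 0 by DESeq2. Kdm2b, which brings a Polycomb complex to CpG islands, was at 95.8, 67.3 and 74.4 in Low and 207, 196 and 190 in High (2.5-fold, limma adjusted p = 0.000103). Kdm6b, a demethylase of H3 lysine 27, was at 28.4, 15.6 and 21.3 in Low and 57.8, 45.5 and 46.7 in High (2.3-fold). In both genes the lowest High library was above the highest Low library. Jmjd1c, Jarid2 and Kdm3a had log2 fold changes of 1.02, 0.87 and 0.8. These genes have long transcripts, with a list median of 5494 nt, and the length correction lowered the median to 0.16 with 12 members higher. The fit that left out Low replicate 1 called as many as 17 higher, and 14 in the block fit and 12 in the length fit.

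Among 67 genes with names of the chromatin remodeller families, 18 were higher and 5 lower (median 0.3). These were taken by name, so that Arid genes such as Arid3a and Arid5b, which are not remodeller subunits, are among them. Chd3, a motor of the NuRD complex, was at 24.6, 12.6 and 13.9 in Low and 41.2, 37.2 and 35.8 in High (2.23-fold). Ino80, Smarca1, Chd2 and Smarcad1, each the motor of its own remodeller, had log2 fold changes of 0.71, 0.78, 0.64 and 0.63. Arid3a, Smarcd2 and Mta1 were lower (-0.95, -0.53 and -0.4). Members that were higher numbered as few as 6 without High replicate 2 and as many as 40 without Low replicate 1, and 33 in the block fit, 29 in the length fit and 11 with equal totals. Without Low replicate 1 the lower count was highest at 9, and 8 with equal totals. After the length correction 29 were higher and the median was 0.21. Of 44 histone methyltransferases 7 were higher and 5 lower, near the shares of all genes; the H3 lysine 9 enzyme Suv39h1 was lower, at 30.3, 31.7 and 32.7 in Low and 15.9, 16.1 and 15.4 in High (1.99-fold lower), while Ehmt2, which methylates the same residue, was higher (0.5). Between 3 members (without Low replicate 3 or High replicate 1) and 20 (without Low replicate 1) were higher when 1 library was left out, and 19 in the block fit and 15 in the length fit. The count of lower members was 2 without Low replicate 3, High replicate 1 or High replicate 3, and 10 in the length fit. Of 40 acetyltransferases, deacetylases and sirtuins, 5 were higher (12.5%, near the 13.8% of all genes) and 2 lower. Kat6b and the coactivator Ncoa3 were higher, from 105 to 201 and from 172 to 356 in mean count, and Hat1, which acetylates newly made histone H4, was lower, from 543 to 351. Removing Low replicate 1 gave as many as 12 higher members, and 8 in the block fit and 8 in the length fit. The lower members numbered 4 in the block fit and 5 in the length fit. Of 70 DNA repair genes 7 were higher and 6 lower (5 and 8 with every library set to the same total). Brca2 was higher (0.82) and the damage recognition factor Xpa lower (-0.94). As few as 2 were higher without High replicate 1, and as many as 22 without Low replicate 1, and 16 in the block fit and 16 in the length fit. The fit that left out Low replicate 3 called as few as 3 lower.

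Transcription factor families held genes of both directions. The 329 genes with Zfp names gave 52 higher (15.8%, near the 13.8% of all genes) and 27 lower (8.21%, beside 14.6%), with a median of 0.12. Zfp57, which keeps imprinted regions methylated, was at 183, 188 and 188 in Low and 508, 486 and 492 in High (2.65-fold, limma adjusted p = 3.14e-05). Zfp532, Zfp808, Zfp600, Zfp819 and Zfp141 were higher, with log2 fold changes of 1.36, 1.05, 1.01, 0.95 and 0.93. Zfp750, an epidermal differentiation factor, and Zfp365 were lower (-1.72 and -1.18). Many Zfp genes have near-identical copies, so reads of single members may have been split between them by the authors' counting. Members that were higher numbered as few as 24 without High replicate 1 and as many as 103 without Low replicate 1, and 81 in the block fit. Without Low replicate 3 the lower count was lowest at 15.

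The corepressor of the KRAB class of these zinc finger proteins, Trim28, was higher at 1748, 1732 and 1760 in Low and 2317, 2286 and 2287 in High (1.31-fold, limma adjusted p = 0.00629), a narrow step with no overlap. It is also in the Trim family of ubiquitin ligases, of which 10 of 37 were higher and 5 lower; 8 and 4 passed in all 9 fits. Trim61, Trim2 and Trim26 were higher (1.04, 0.64 and 0.63) and Trim47, Trim67 and Trim62 lower (-1.93, -1.01 and -0.98). Trim47 missed the signal level or the lack of overlap asked of named genes.

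Of 21 Ets and Gata factors 6 were higher and 5 lower, and 6 and 4 passed in all 9 fits. The higher ones were all of the Ets class: Etv4 (1.93), Etv1 (1.21), Erf (1.15), Elf4 (1.1), Etv6 (0.54) and Elk3 (0.47). Erf, a repressor that ERK inactivates, was at 155, 112 and 126 in Low and 263, 294 and 316 in High. Gata2, Gata3 and Elf3, factors of trophoblast and other epithelia, were lower (-1.31, -0.88 and -0.83). Of 23 nuclear receptors 6 were higher and 3 lower. Nr0b1 (Dax1) and Nr5a2, both active in naive ES cells, were higher, from 60 to 194 and from 18.1 to 46.1 in mean count. Rarg, a retinoic acid receptor, was at 92, 75.7 and 87.1 in Low and 234, 225 and 230 in High (2.71-fold, limma adjusted p = 9.88e-06), and its partner Rxra at 14.2, 12.1 and 12.5 in Low and 7.39, 7.65 and 7.97 in High (1.69-fold lower). When Low replicate 2, Low replicate 3 or High replicate 2 was left out, as few as 1 were lower, and 5 in the length fit.

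Of 33 Sox and Fox factors 9 were higher and 6 lower. The forkhead factor Foxd3, required in the epiblast, was at 17.4, 20.3 and 24.7 in Low and 46.2, 61.8 and 55.9 in High (2.63-fold), and Foxp4 and Foxp1 were higher (1.03 and 0.68). Sox15, a close relative of Sox2, and Foxj1, the regulator of motile cilia, were lower (-0.69 and -1.4). Foxj1 missed the signal level or the lack of overlap asked of named genes. Of 21 Kruppel-like and Sp factors 7 were higher and 3 lower; Klf5 and Klf3 were higher (1.42 and 0.67) and the TGF-beta responsive Klf10 lower (-0.89). The count of higher members was 3 without Low replicate 2, Low replicate 3, High replicate 2 or High replicate 3. The lower members numbered 5 in the length fit. Among 17 genes of the E2F and retinoblastoma family, Rb1 itself, which restrains entry into the cell cycle, was at 21.3, 22 and 23.3 in Low and 7.86, 8.36 and 9.74 in High (2.57-fold lower, limma adjusted p = 8.1e-05), with no overlap. E2f5 and E2f6 were lower (-0.63 and -0.57) and E2f4 and E2f2 higher (0.27 and 0.72). The call for E2f4 was lost without High replicate 2, High replicate 3, Low replicate 3 or Medium replicate 3 (adjusted p from 0.0528 to 0.11).

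**Figure D3:**
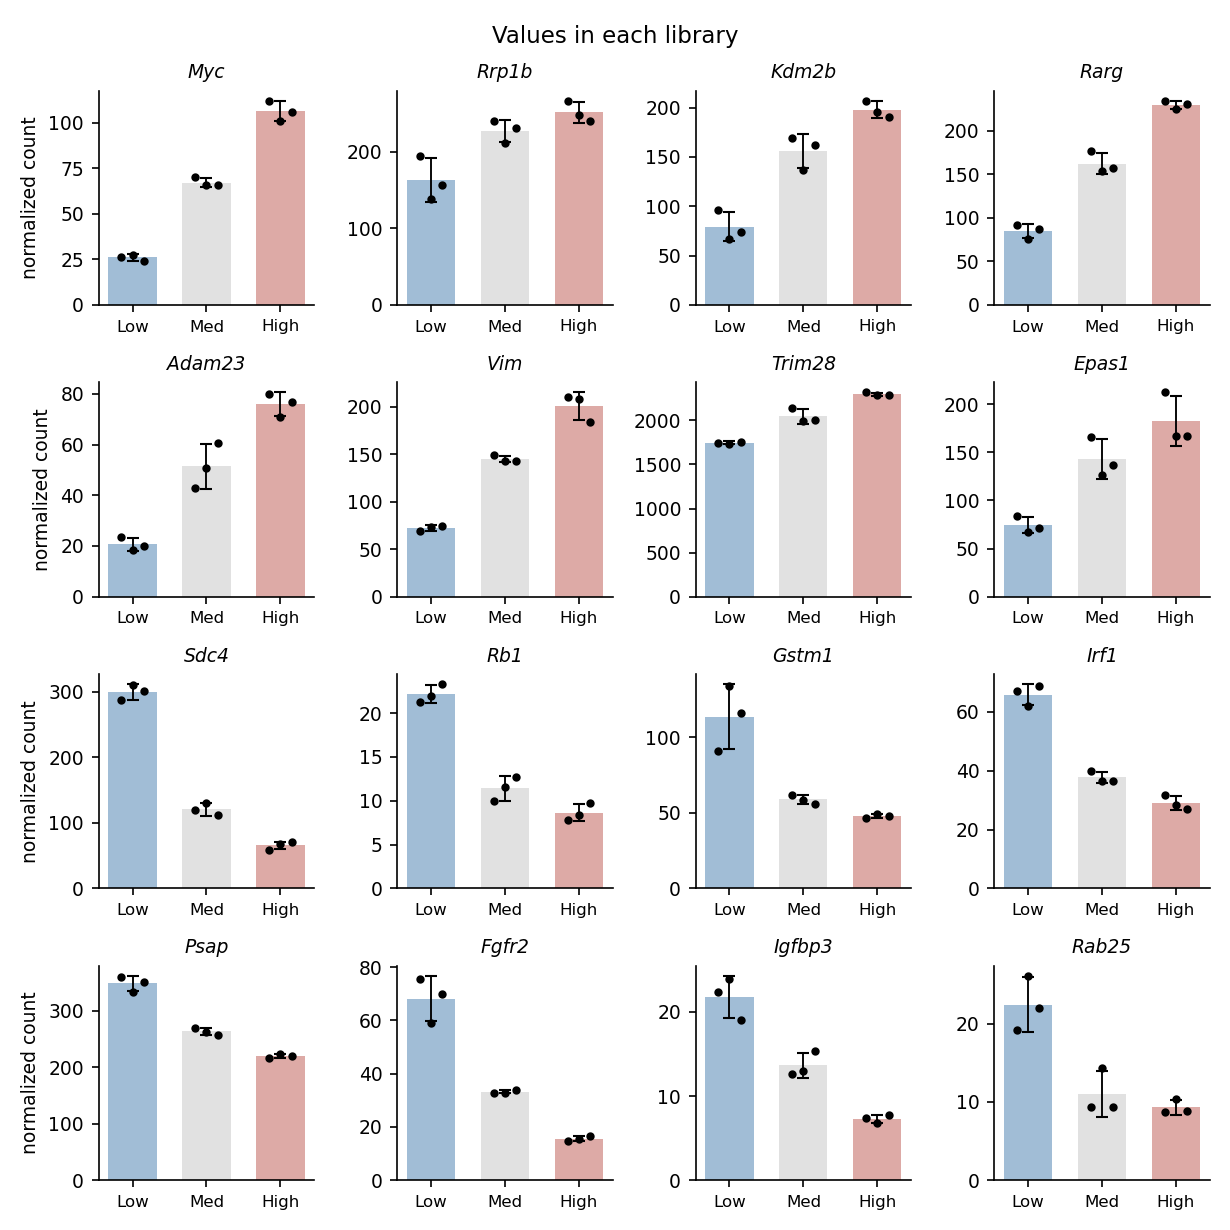
Normalized count in each library for Myc and 15 genes described in the text, in the Low, Medium and High populations; points are libraries in the order of replicates 1 to 3, bars are means and error bars are SD (n = 3), and each axis starts at 0. In every panel the 3 High libraries do not overlap with the 3 Low libraries. Lack of overlap was a condition for naming most of these genes, and 3768 of the 3832 called genes met it.

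In the Notch pathway, in which ligands on one cell activate receptors on the next, 10 of 32 were lower and 6 higher. The ligands Dll3 and Jag2 were lower (-1.02 and -0.98), as were the target Hey1 (-1.37) and the ligases Dtx4 and Dtx1 (-1.51 and -0.56). The receptor Notch4 was higher, at 6.47, 3.4 and 6.28 in Low and 21.9, 16.4 and 17.8 in High (3.48-fold), and the nuclear effector Rbpj was higher as well, at 311, 265 and 278 in Low and 469, 430 and 427 in High (1.55-fold). The coactivator Maml2 was higher (1.28). Removing Low replicate 3 gave as few as 5 lower members.

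In the insulin and IGF pathway 9 of 34 were lower and 3 higher. The binding proteins that hold IGFs outside the cell were lower: Igfbp3 was at 22.4, 23.9 and 19 in Low and 7.39, 6.76 and 7.72 in High (2.98-fold lower, limma adjusted p = 3.98e-05), and Igfbp4 and Igfbp5 had -0.96 and -0.95. Igf1 had 1.76, 2.59 and 1.59 in Low and 0, 0.0889 and 0 in High, so that no fold is given. The kinase Akt1 was at 68.8, 58.6 and 62.4 in Low and 32.3, 34.4 and 29.4 in High (1.98-fold lower). The mRNA-binding protein Igf2bp2 was higher (0.64). As many as 7 were higher without Low replicate 1, and 5 in the length fit. The fit that left out High replicate 2 called as few as 5 lower, and 14 in the length fit.

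Retinoic acid genes gave 4 of 26 higher (15.4%, near the 13.8% of all genes) and 6 lower (23.1%). The receptors Rarg and Rara were higher (1.43 and 0.48). Members that were higher numbered as many as 7 without Low replicate 1. Without Low replicate 3 the lower count was lowest at 2. The ERK feedback inhibitors of the Sprouty and Spred family gave 4 of 6 higher, all 4 in each of the 9 fits, and 0 lower by limma, 0 at an unadjusted p under 0.05, 0 by edgeR and 0 by DESeq2. Spry4 was at 51.3, 44.5 and 50.8 in Low and 140, 101 and 99.9 in High, and Spry2, Spred1 and Spred2 had 0.53, 0.5 and 0.38. Of the dual-specificity phosphatases, which remove the activating phosphates of MAP kinases, 3 of 19 were higher, among them the ERK-specific Dusp6 (0.43), and 4 lower, among them Dusp7 (-0.91). When Low replicate 1 was left out, as many as 5 were higher, and 5 in the block fit and 5 in the length fit. Of 40 G protein-coupled receptors with Gpr, Adgr and related names, 8 were higher and 12 lower. Gprc5c was at 38.7, 39 and 39.1 in Low and 9.97, 10.3 and 12.1 in High (3.61-fold lower), and the planar polarity cadherin Celsr1 was higher (1.24).

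Genes of the interferon response and of antigen presentation were lower more often than higher. Of 38, 15 were lower and 3 higher (median -0.18), and 13 of the lower ones passed in all 9 fits. The count of higher members was 1 without Low replicate 2 or Low replicate 3 and 8 without Low replicate 1, and 6 in the block fit and 5 in the length fit. Irf1, an interferon-inducible factor, was at 67, 61.9 and 68.6 in Low and 31.8, 28.2 and 27.1 in High (2.27-fold lower, limma adjusted p = 2.52e-05). Ifitm1, an antiviral membrane protein, was at 165, 289 and 227 in Low and 86.6, 100 and 97.7 in High (2.4-fold lower). The peptide loading genes Tap1, Tap2, Psmb8, Psmb9, Erap1 and Tapbp were lower, with log2 fold changes of -1.02, -1.23, -1.42, -0.83, -0.78 and -0.5. Of these, Tap1 and Psmb8 were low in both populations, at 3.84 ± 0.523 in Low and 1.38 ± 0.403 in High and at 2.33 ± 0.89 in Low and 0.198 ± 0.0953 in High (SD, n = 3). B2m, the shared light chain of class I molecules, was not called, at 12.2 ± 2.71 in Low and 11.7 ± 1.36 in High (SD, n = 3). Ddx58 went the other way, at 25.5, 29.2 and 28.6 in Low and 81.9, 78.8 and 76.4 in High (2.85-fold). The class I heavy chains H2-T22 and H2-Q4 were lower (-1.05 and -0.84), and these genes have close copies. Of 34 genes of NF-kappaB and TNF signalling 5 were higher and 5 lower (14.7% each), near the shares of all genes (13.8% and 14.6%). Nfkbiz, an inducible inhibitor-like cofactor, was lower (-1.52) and the TNF receptors Tnfrsf1a and Tnfrsf1b higher (0.67 and 0.74). Removing High replicate 1 or High replicate 2 gave as few as 3 lower members.

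Cell surface and guidance genes were called in both directions. Heparan sulphate proteoglycans, which carry sugar chains that bind growth factors, gave 12 of 42 lower and 7 higher with their enzymes. Sdc4, a syndecan, was at 287, 311 and 301 in Low and 59.3, 67.7 and 70.2 in High (4.56-fold lower, limma adjusted p = 1.12e-06). The glypicans Gpc1 and Gpc3 were lower (-1.39 and -0.89) and Gpc4 higher (0.51). Agrin (Agrn) was higher, at 189, 93.3 and 119 in Low and 274, 233 and 243 in High (1.86-fold). The chain-elongating enzyme Ext1 was higher (0.58, but 0.38 and not called in the length fit), and the sulphotransferases Chst15 and Hs6st2 were lower (-1.24 and -0.95). As many as 11 were higher without Low replicate 1. The fit that left out Low replicate 3 called as few as 7 lower.

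Of 17 Eph receptors and ephrins, 5 were lower and 3 higher, and ligands and receptors differed in direction with 1 exception: the 5 lower genes were ephrin ligands, Efnb1 (-1.49), Efna1 (-1.18), Efna3 (-0.87), Efna4 (-0.77) and Efna2 (-0.68), and the receptors Epha4 and Epha2 were higher (0.67 and 0.45). Efnb1 was at 5.98, 6.26 and 6.68 in Low and 0.99, 2.13 and 1.77 in High. The exception was a ligand that was higher, Efnb3 (0.38), whose call was lost without High replicate 1, High replicate 2, High replicate 3, Low replicate 1, Low replicate 2 or Medium replicate 3 (adjusted p from 0.0522 to 0.112). Among semaphorins and their receptors 7 of 25 were higher, with Sema6c at 13.5, 9.48 and 14.3 in Low and 28.4, 29.1 and 29.1 in High (2.32-fold) and Sema7a at 2.04, 1.61 and 1.99 in Low and 7, 5.87 and 5.79 in High; 4 were lower, of which Sema6a (-1.16) passed in all 9 fits. Members that were higher numbered as many as 13 without Low replicate 1. Without High replicate 3 the lower count was lowest at 1. Of the netrin pathway, the receptors Unc5b and Neo1 were higher (0.67 and 0.49). Adam23, a catalytically inactive surface protein of the ADAM family, was at 23.6, 18.4 and 20.1 in Low and 80.1, 71.1 and 76.9 in High (3.67-fold), the largest change of 18 ADAM and ADAMTS genes, of which 4 were higher and 3 lower. When Low replicate 3 or High replicate 3 was left out, as few as 2 were higher. Of 21 tetraspanins, membrane organizers, 7 were lower and 1 higher. Tspan6, Tspan7 and Tspan15 were lower (-1.16, -1.12 and -0.83). The count of lower members was 4 without Low replicate 3. Of 20 protease inhibitors 7 were lower and 1 higher. Serpine2 was at 25.7, 29 and 29.3 in Low and 9.51, 11.1 and 11.7 in High (2.6-fold lower) and cystatin C (Cst3) at 48.1, 83 and 62.8 in Low and 25, 31.6 and 32.3 in High (2.18-fold lower). The higher members numbered 3 in the length fit. Removing Low replicate 3 or High replicate 1 gave as few as 4 lower members.

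Cytoskeletal genes were called in both directions. Among intermediate filament genes, the epithelial keratins Krt8, Krt18, Krt42 and Krt17 were lower (-1.29, -1.23, -1.26 and -0.61), together with Krt7. Vimentin (Vim), typical of mesenchymal cells, was higher at 69.2, 73.7 and 74.9 in Low and 210, 208 and 184 in High (2.76-fold, limma adjusted p = 4.07e-06), and the nuclear lamin Lmna rose from 21.4 to 44.9 in mean count (2.1-fold). The groups did not overlap in either gene. Over the list 4 of 20 were higher and 6 lower. Of 16 annexins and S100 proteins, which bind calcium, 8 were lower and 2 higher. S100a6, Anxa2 and Anxa8 were lower (-1.22, -0.94 and -1.82) and Anxa6 and Anxa11 higher (0.5 and 0.48). Anxa8 missed the signal level or the lack of overlap asked of named genes. As few as 5 were lower without Low replicate 3 or High replicate 3.

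Of 68 actin genes and regulators 15 were lower and 10 higher. The bundling plastins Lcp1 and Pls3 were lower, at 16.1, 13.4 and 14.1 in Low and 3.04, 3.65 and 5.07 in High and at 44.9, 40.1 and 44.9 in Low and 17.4, 18 and 18.8 in High. The tropomyosins Tpm4 and Tpm1 and the calponin Cnn2 were lower (-0.84, -0.62 and -0.71), whereas the alpha-actinins Actn4 and Actn1, which crosslink filaments, were higher (0.63 and 0.55). Beta-actin (Actb) was not called, at 2287 ± 202 in Low and 2751 ± 55.3 in High (SD, n = 3). In the block fit it was higher (limma adjusted p = 0.0388). The fits that left out High replicate 2 or High replicate 3 called as few as 4 higher, and the one without Low replicate 1 as many as 16. Of 20 tubulins and their chaperones 4 were higher and 4 lower: Tubb2b was higher (0.79) and Tubb4a and Tubb6 lower (-1.59 and -0.56). Tubb4a missed the signal level or the lack of overlap asked of named genes. Members that were lower numbered as many as 7 without Low replicate 1. Tubulin genes are near copies of each other, so their single values are uncertain.

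Of 47 Rab GTPases 12 were lower and 1, Rab31 (0.57), was higher (median -0.15). Rab25, of recycling endosomes in epithelia, was at 19.2, 26.1 and 22 in Low and 8.72, 10.4 and 8.85 in High (2.41-fold lower), and Rab12 and Rab2a were lower (-0.71 and -0.52). The higher members numbered 3 in the length fit. Without Low replicate 3 or High replicate 2 the lower count was lowest at 7. Coat protein and golgin genes gave 3 of 42 higher and 7 lower. When Low replicate 1 was left out, as many as 10 were higher, and 9 in the block fit and 7 in the length fit. The count of lower members was 2 without Low replicate 3.

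Redox defence genes were lower where they were called. Of 50 glutathione and NRF2 genes, 15 were lower (median -0.28), and 0 were higher by limma, 3 at an unadjusted p under 0.05, 0 by edgeR and 1 by DESeq2. Gstm1, a glutathione transferase, was at 91, 134 and 116 in Low and 46.5, 49.5 and 48.1 in High (2.36-fold lower, limma adjusted p = 0.00014), and all 3 Low libraries were above all High libraries. Gsto1, Gstm2 and the secreted peroxidase Gpx3 were lower (-0.78, -0.92 and -1.3). The regulator Nfe2l2 (NRF2) and its classical targets Nqo1 and Txn1 were not called, with log2 fold changes of 0.16, 0.12 and -0.27. The Gstm genes are close paralogs. The list holds short transcripts (median 1731.5 nt), and the length correction gave 21 lower and 8 higher with a median of -0.18. Removing Low replicate 2 gave as many as 2 higher members, and 3 in the block fit and 8 in the length fit. As many as 27 were lower without Low replicate 1.

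Targets of the hypoxia factors gave 17 of 40 lower and 6 higher (median -0.27). Bnip3, of mitophagy, was at 61.1, 51.3 and 67.8 in Low and 27.2, 23.6 and 24.9 in High (2.38-fold lower). The glucose transporters Slc2a1 and Slc2a3 were lower (-0.84 and -0.72), as were the prolyl hydroxylases of collagen P4ha1 and P4ha2 (-0.95 and -0.95) and the oxygen sensor Egln1 (-0.68). In the opposite direction, Epas1, which encodes HIF-2alpha, was at 84, 67.4 and 71.7 in Low and 212, 167 and 167 in High (2.45-fold), and hexokinase 2 (Hk2) was at 215, 124 and 146 in Low and 383, 315 and 299 in High (2.06-fold). Hif1a was not called (-0.14). The fits that left out Low replicate 3 or High replicate 2 called as few as 11 lower.

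In the amino acid response governed by ATF4, 10 of 39 were lower and 5 higher, and Atf4 itself was not called (0.11). Ddit4, an inhibitor of mTORC1, was at 55.8, 43.3 and 49.7 in Low and 8.91, 11 and 14.2 in High (4.35-fold lower), and Cebpb was lower (-1.6). The transporter Slc7a1 and the transsulphuration enzyme Cth were higher (0.87 and 0.63). Members that were higher numbered as few as 3 without High replicate 2 or High replicate 3. Without Low replicate 3 the lower count was lowest at 6. The unfolded protein response gave 2 of 46 higher and 4 lower. Between 0 members (without Low replicate 3, High replicate 1, High replicate 2 or High replicate 3) and 5 (without Low replicate 1) were higher when 1 library was left out, and 4 in the block fit and 0 with equal totals. The count of lower members was 2 without Low replicate 3, High replicate 1 or High replicate 3 and 8 without Low replicate 1, and 8 in the length fit.

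Lipid genes were lower more often than higher. In peroxisomes and fatty acid oxidation 11 of 46 were lower and 6 higher: Cpt1c was at 38.8, 35.9 and 37.1 in Low and 18.9, 18.9 and 19.9 in High (1.94-fold lower), and Hadh and Cpt2, of mitochondrial oxidation, were lower (-0.58 and -0.6). Removing High replicate 2 gave as few as 1 higher members, and 3 with equal totals. As few as 5 were lower without Low replicate 3 or High replicate 2. Of 42 sphingolipid enzymes 11 were lower and 5 higher, with Sgpp1 and Cers2 lower (-1.07 and -0.56) and Cers6 and B4galt6 higher (0.71 and 0.87). The fits that left out High replicate 1 called as few as 3 higher, and the one without Low replicate 1 as many as 8. Members that were lower numbered as few as 5 without High replicate 2. Among lipid carriers and receptors, the fatty acid binding protein Fabp5 was at 33.1, 52.5 and 46.2 in Low and 11.4, 13.8 and 13.7 in High (3.39-fold lower), and apolipoprotein E (Apoe) was at 813, 1069 and 987 in Low and 1299, 1488 and 1516 in High (1.5-fold higher); 5 of 40 were higher and 9 lower (3 higher by edgeR). Without Low replicate 2, Low replicate 3 or High replicate 1 the higher count was lowest at 2, and without Low replicate 1 it was highest at 8, and 8 in the block fit and 3 with equal totals. When Low replicate 3 or High replicate 3 was left out, as few as 5 were lower, and 14 in the length fit. In the TCA cycle and pyruvate entry 6 of 41 were higher (14.6%, near the 13.8% of all genes) and 2 lower (4.88%). The pyruvate carrier subunit Mpc1 was higher (0.82), and of the kinases that close pyruvate dehydrogenase Pdk1 was higher and Pdk4 lower (0.39 and -0.73). The count of higher members was 2 without High replicate 1 or High replicate 2, and 12 in the length fit. Removing Low replicate 1 gave as many as 4 lower members.

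Ion channels were called often in both directions, 15 of 72 higher and 20 lower. The potassium channel Kcnk1 was at 38.5, 43.1 and 45.6 in Low and 19.7, 24 and 20.4 in High (1.98-fold lower). The calcium channel Cacna1a was higher (0.76). As few as 13 were lower without High replicate 2. ABC transporters gave 6 of 28 higher and 2 lower, with Abcc4 higher (0.63). The fits that left out Low replicate 3 or High replicate 3 called as few as 0 lower, and 5 in the block fit and 7 in the length fit. Of the zinc and copper genes 5 of 32 were lower (15.6%, near the 14.6% of all genes) and 1 higher. The higher gene was the zinc importer Slc39a14, at 128, 89.2 and 102 in Low and 194, 172 and 181 in High (1.71-fold). The higher members numbered 3 in the length fit. The lower members numbered 9 in the block fit and 8 in the length fit.

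The ubiquitin system comprises conjugating enzymes, ligases that choose substrates, and proteases that reverse the mark. Of 33 conjugating Ube2 genes, 9 were lower and 0 higher by limma, 2 at an unadjusted p under 0.05, 0 by edgeR and 1 by DESeq2. Ube2e1 was at 56.9, 82.8 and 76 in Low and 38.2, 41.3 and 40.1 in High (1.8-fold lower) and Ube2h at 65.9, 60.6 and 63.5 in Low and 42.3, 36.4 and 34.7 in High (1.68-fold lower). The higher members numbered 2 in the block fit and 2 in the length fit. Members that were lower numbered as few as 4 without Low replicate 3, High replicate 1 or High replicate 3 and as many as 18 without Low replicate 1. F-box and cullin genes gave 6 of 67 higher and 12 lower; the shared adaptor Skp1a was lower (-0.47). Without Low replicate 3, High replicate 2 or High replicate 3 the higher count was lowest at 2, and without Low replicate 1 it was highest at 13, and 10 in the block fit and 10 in the length fit. When Low replicate 3 or High replicate 1 was left out, as few as 7 were lower. Kelch-like genes gave 3 of 29 higher and 7 lower, led by Klhl13, at 327, 286 and 296 in Low and 66.9, 60.3 and 58.1 in High (4.9-fold lower), with Klhl21 lower as well (-0.88). The count of higher members was 1 without Low replicate 2, Low replicate 3, High replicate 1, High replicate 2 or High replicate 3 and 7 without Low replicate 1. Ubiquitin-specific proteases gave 6 of 48 higher (12.5%, near the 13.8% of all genes) and 3 lower (6.25%). Usp28, which removes ubiquitin from the Myc protein, was higher, at 141, 93.2 and 110 in Low and 214, 189 and 178 in High (1.69-fold). Removing Low replicate 2, Low replicate 3, High replicate 1 or High replicate 3 left as few as 3 higher members, and removing Low replicate 1 gave as many as 22, and 12 in the block fit and 3 with equal totals.

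Lineage markers were compared to describe what else the sorted populations could hold. The trophoblast list had 16 of 23 lower and 2 higher (median -0.88), and its summed level was 1769 to 1924 in Low and 944 to 990 in High. This list was chosen with earlier results of these data known. It holds genes of the 30 lowest, such as Rhox9, Krt7 and Fgfr2, so its share is not independent of them. The 2 higher members were Tead4 and Tfeb. Fgfr2, the FGF receptor of the trophectoderm, was at 75.7, 58.9 and 69.8 in Low and 14.8, 15.3 and 16.5 in High (4.39-fold lower), and Tfap2c at 209, 219 and 217 in Low and 93, 97.9 and 94.9 in High (2.25-fold lower). Gata3 was at 2.67, 3.04 and 2.55 in Low and 0.792, 0.8 and 1.53 in High. Cdx2, Elf5, Hand1 and Tpbpa were not analysed here. The list's part in the keratin and Gata results above, which share members with it, was not tested.

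Primitive endoderm markers had 7 of 14 higher and 3 lower, and Gata4, Gata6 and Sox17 were not analysed here. The summed level was 734 to 1031 in Low and 1355 to 1553 in High. The matrix genes Lamc1 and Lama1 were higher (1.21 and 1.55) and the parathyroid hormone receptor Pth1r lower, at 21, 22 and 18.5 in Low and 1.32, 1.16 and 1.77 in High (14.5-fold lower). Fibroblast and feeder markers had 4 of 23 higher and 4 lower, with sums of 637 to 1105 in Low and 1261 to 1619 in High. The collagens Col1a1, Col1a2 and Col3a1 were not called, with log2 fold changes of 0.36, -0.01 and 0.26 and mean counts in High of 10.2, 10.8 and 6.07; Vim, described above, is in this list too, and the list's part in the Vim result was not tested. Col1a1 was higher in the block fit (limma adjusted p = 0.0231). As few as 2 were higher without Low replicate 3 or High replicate 1. The fits that left out Low replicate 1, Low replicate 3, High replicate 2 or High replicate 3 called as few as 2 lower. Germ cell genes had 9 of 43 higher and 14 lower. Dmrt1 and the meiotic cohesin Rec8 were lower (-0.52 and -1.23), and the piRNA factor Mael and the synaptonemal gene Sycp1 higher (0.66 and 0.89). Members that were lower numbered as few as 8 without Low replicate 3. Of the ES cell markers 10 of 18 were higher and 0 lower by limma, 2 at an unadjusted p under 0.05, 0 by edgeR and 2 by DESeq2, with Tfcp2l1 at 208, 129 and 128 in Low and 331, 268 and 273 in High (1.88-fold) and Sox2 not called (-0.07). Without High replicate 2 or High replicate 3 the higher count was lowest at 6. When Low replicate 1 was left out, as many as 2 were lower, and 3 in the block fit, 2 in the length fit and 2 with equal totals.

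**Figure D4:**
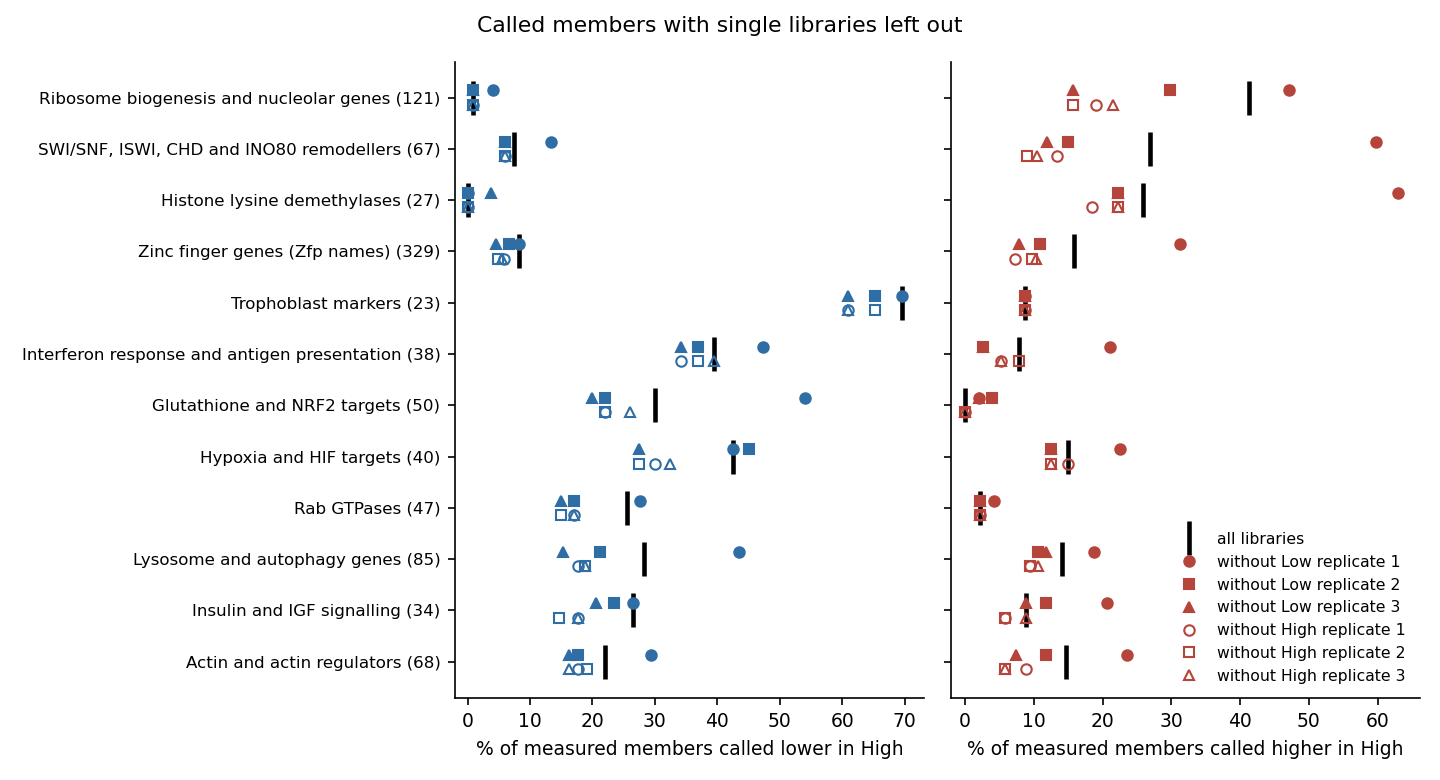
Share of measured members called lower (left, in %) and higher (right, in %) for 12 lists with all libraries (black bar) and without each Low (filled) or High (open) library; members measured are in parentheses. Trophoblast markers, a list chosen with earlier results of these data known, stay between 14 and 16 lower of 23. Remodellers range from 6 to 40 higher of 67, the highest without Low replicate 1.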

How the data were processed

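Total RNA of sorted mouse ES cells was sequenced as single-end reads of 61 nt, 3 libraries each for the Low, Medium and High populations, per the labels. The authors deposited 1 signal value per gene and library, normalized counts that sum to 953055 to 1026948 per library. The submitters' processing notes name cutadapt, Picard, limma and RSEM 1.17 without their roles; the genome build, annotation and strand setting were not given in the sources used here. Every value was a whole multiple, within 0.001, of what 1 read is worth, so that 11114936 to 16755566 reads per library were recovered. Rows with no gene name (85) held 1.71% to 2.53% of the signal.

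All 13499 genes reached 1 CPM in at least 3 libraries and were tested. limma 3.58.1 with a variance trend was fitted to log2(signal + 1 CPM) over the 9 libraries with population as the only term, in R 4.3.3, with Benjamini-Hochberg adjustment at 0.05. The p-values measure the spread between 3 biological replicates per group. On simulated data of 13322 genes drawn for the High against Low comparison, the fit called 14% of 1.5-fold, 72% of 2-fold and 98% of 4-fold changes, and 9 unchanged genes. Only 50 genes were changed by each of these folds and by 0.5-fold, and 13122 were unchanged. The simulation held no length differences between libraries, and 3832 genes were called in the data. Its shares therefore need not hold for the data. Alternatives were other pseudocounts (0.25 and 4 CPM), filters, scalings and variance models, a smooth correction for transcript length, edgeR 4.0.16 and DESeq2 1.42.0 on the recovered reads, each library left out, and, chosen after seeing the data, Low replicates 1 and 2 both left out.

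Replicate numbers come from the labels. Deviations from the group means correlated at 0.53, 0.26 and 0.18 between Low and High libraries of the same number, all above 0.1. A fit with the number as a block is therefore given where it changes a count. Of libraries of different numbers, Low replicate 2 with High replicate 3 had 0.31 and Low replicate 3 with High replicate 2 had 0.12. The other pairs were negative. Low replicate 1 had -0.28 with High replicate 2 and -0.35 with High replicate 3. High replicate 1 had -0.47 with Low replicate 2 and -0.25 with Low replicate 3. The block fit called 5239 genes.

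Gene lists were written by hand or taken from gene names, and they and the comparison were chosen with earlier results of these data known. Some lists and genes are not reported here. Genes named among the largest changes come from the 30 highest and 30 lowest called genes above the 25th percentile of mean signal with no overlap between High and Low, predicted genes and pseudogenes passed over. In each list the members named are mainly the 4 largest changes in its main direction and the 2 largest in the other, under the same level and overlap conditions. Other members are given by value. Some of these changed more but missed the level or overlap condition. They include Anxa8, Trim47, Tubb4a, Foxj1, Gata2, Hey1, Dll3, Maml2, Chst15, Xpa, H2-T22, Tap2, Efnb1, Efna1 and Efna3. Genes named as called were in addition preferred when they passed in every fit without 1 library, a choice made after the values were seen. Promoters were matched to genes by symbol, for 82.6% of the ribosome biogenesis and 82.4% of the lysosome list.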

Additional observations from a re-analysis of the deposited data

How the results depend on the processing

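The number of called genes depended on which libraries were in the fit. Leaving out 1 library gave between 2345 called genes, when Low replicate 3 was removed, and 5846, when Low replicate 1 was removed. Those higher numbered 1120 to 3066 and those lower 1225 to 2780, against 3832, 1866 and 1966 with all libraries. Without High replicate 1, 2 or 3 the higher genes numbered 1200, 1170 and 1220, and without High replicate 2 the called genes numbered 2510. Without both Low replicates 1 and 2, 3167 genes were called. Array weights, whose estimate did not converge, gave 9129 called genes, 4563 higher and 4566 lower. The replicate block with the length correction gave 6012 called and 3110 higher genes. The replicate block alone gave 5239, of which 3827 were also called without it, and the length correction alone gave 5146; the cause of these rises was not tested. The other pseudocounts, filters, scalings and variance models, edgeR (3665 genes) and DESeq2 (3870 genes) stayed within 1.5 times of the counts with all libraries.

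Of 384 genes chosen by the naming rule, 295 kept their call under each alternative. Of 9216 recomputed values 538 lost the call and 0 changed direction. The genes were chosen as called without overlap between High and Low libraries, so the absence of reversals follows largely from that choice. The simulated fit recovered 14% of 1.5-fold changes, but far fewer genes were changed in it than were called in the data. In the data 1736 of the called genes (45.3%) differed by less than 1.5-fold, so the simulated share cannot be carried over. A list member that was not called may still differ between High and Low. The files list 1 value per gene, so reads shared between close paralogs could not be followed.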

Other observations

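Called genes of chromosome X were mostly lower. Of 514 measured genes on X, 117 (22.8%) were lower in High and 46 (8.95%) higher, with a median log2 fold change of -0.08, beside 14.6% and 13.8% over all genes. The next highest share of lower genes was on chromosome 1, where 138 of 751 (18.4%) were lower. On chromosome 18 the reverse was found, with 66 of 319 genes (20.7%) higher and 42 (13.2%) lower. These shares were not tested.

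Genes outside the protein-coding class that were called were mostly higher. Of 226 lincRNA genes, 34 (15.0%) were higher and 16 (7.08%) lower, with a median log2 fold change of 0.19. Of 202 processed pseudogenes 25 (12.4%) were higher and 4 (1.98%) lower, with a median of -0.03. Of 12543 protein-coding genes 1741 (13.9%) were higher and 1911 (15.2%) lower. Pseudogenes share sequence with their parent genes, so their reads are uncertain where the counting could split them.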
